A study of Homo sapiens with 27 samples.

Results

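The genes described here are 6 genes of cellular cholesterol export and its control by the liver X receptors (LXRs), namely ABCA1, ABCG1, MYLIP, LPCAT3, NR1H2 and NR1H3, out of 24566 genes in the deposited count table. They were found by their Entrez IDs. They were chosen by the fold changes of ABCA1 after Compound Kushen Injection (CKI) alone, which differed between the cell lines, so levels after CKI alone are given as a description, without a test. CKI is an injection made from extracts of the roots of Kushen and Baituling. RNA was sequenced after 48 h from 2 established human cell lines, A431 from an epidermoid carcinoma and MDA-MB-231 from a breast adenocarcinoma, in 27 libraries that make up 9 groups of 3 biological replicates. A431 cells were left untreated or received the vehicle control, CKI (1 in 20 dilution, 1.0 mg/ml), doxorubicin, or doxorubicin together with CKI. MDA-MB-231 cells were left untreated or received CKI (the same 1 in 20 dilution, 1.0 mg/ml), 5-FU (10 ug/ml), or both agents together. Doxorubicin is an anthracycline that intercalates into DNA, and 5-FU (5-fluorouracil) is a pyrimidine antimetabolite. No doxorubicin dose is given here, since more than 1 appears in the labels with none tied to a sample, and the composition of the vehicle is likewise unstated. Each line is a single cell line, so a difference between them is a difference between these lines only.

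LXRs are nuclear receptors that sense oxysterols and desmosterol, which accumulate when a cell holds much cholesterol. NR1H3 encodes LXR alpha and NR1H2 encodes LXR beta. Each pairs with a retinoid X receptor (RXR) and binds DR4 elements, which are direct repeats of a hexamer with 4 bases between them. Their known targets include ABCA1, which passes cholesterol and phospholipid to lipid-poor apolipoprotein A-I, ABCG1, which passes cholesterol to high-density lipoprotein, MYLIP, a ubiquitin ligase that limits lipoprotein uptake, and LPCAT3, which places polyunsaturated fatty acids in phospholipids.

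The ABCA1 promoter is shown because it carries the DR4 element through which LXRs are known to act on this gene. The sequence is the RefSeq promoter entry (GRCh38.p14), which matched GRCh37 exactly once. It covers the 250 bases before the start of the gene on the minus strand, 5′ to 3′, with the DR4 match in capitals.
ABCA1 promoter, chr9:107690437-107690686 (GRCh37): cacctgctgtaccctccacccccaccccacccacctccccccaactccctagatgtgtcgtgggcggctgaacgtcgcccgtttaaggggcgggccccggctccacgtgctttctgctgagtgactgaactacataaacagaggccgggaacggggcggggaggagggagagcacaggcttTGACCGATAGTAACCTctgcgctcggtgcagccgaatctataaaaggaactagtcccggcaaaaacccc
The search was for a direct repeat of NGGTNA with any 4 bases between its copies, on both strands. In the 5000 bases before the start of the main transcript of each member, ABCA1 and NR1H3 held 1 match each, and no match was found for ABCG1, MYLIP, LPCAT3 or NR1H2. Both sites are printed below on the strand of the repeat, with the hexamers in capitals, to show how alike they are.
ABCA1 site, chr9:107690490-107690505, plus strand: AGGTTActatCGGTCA
NR1H3 site, chr11:47276598-47276613, minus strand: AGGTTActgcTGGTCA
The ABCA1 site ends 53 bases before the start of the gene. The NR1H3 site lies 2933 bases before the start of the main transcript, within the annotated span of the gene and in none of its exons. Of 35116 promoters of 300 bases in the RefSeq table, 0.624% held a match, and so did 11.8% of 19892 windows of 5000 bases before protein-coding starts. A match to these letters is a description and not evidence of binding.

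Total counts per library ranged from 17757206 to 22809339, so that 3 counts corresponded to 0.132 to 0.169 CPM (counts scaled to a common library size), counting error only. Replicate 1 of untreated MDA-MB-231 cells stood apart from its own replicates. Its chi-square per degree of freedom over genes was 64.5 and 74.5 against the other replicates, while all pairs without this library were between 1.84 and 25.35. KRT5 and CDH1, markers of A431 cells, were at 1431 to 3777 and 362.5 to 947 CPM in the A431 libraries and at 0.0492 to 3.96 and 0.334 to 2.03 CPM in the MDA-MB-231 libraries. VIM, a mesenchymal marker, was at 713 to 1964 CPM in MDA-MB-231 and 2.40 to 37.5 CPM in A431. SPARC, the weakest of the MDA-MB-231 markers, reached only 3.66 CPM in that line. PTPRC, a leukocyte marker, had no count in the 9 A431 libraries without doxorubicin and 23 to 39 counts in the 6 with it, and its part in the doxorubicin results was not tested.

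ABCA1 (Entrez ID 19, chr9:107543287-107690436 on GRCh37, minus strand, 50 exons) was higher in untreated MDA-MB-231 cells than in untreated A431 cells. Its level in the untreated MDA-MB-231 libraries was 102, 122 and 132 CPM, and in those with CKI it was 13.6, 13.5 and 11.85 CPM. In A431 cells it was 12.48, 12.47 and 13.55 CPM without treatment and 29.8, 28.0 and 30.7 CPM with CKI. All CKI libraries thus lay below all untreated libraries in MDA-MB-231 and above them in A431, and the level left in MDA-MB-231 after CKI overlapped with that of untreated A431 cells. In such bulk libraries, fewer cells with a transcript and less of it per cell cannot be told apart. The order of the 9 group means ran from untreated MDA-MB-231 (119 ± 15.3 CPM, SD, n = 3) and 5-FU (108 ± 7.13), which overlapped, through CKI in A431 (29.5 ± 1.38), CKI with doxorubicin (21.6 ± 0.316), CKI with 5-FU (17.8 ± 1.95) and doxorubicin (16.4 ± 0.680), to CKI in MDA-MB-231 (13.0 ± 0.969), untreated A431 (12.8 ± 0.620) and vehicle (12.1 ± 0.584). CKI with 5-FU overlapped with doxorubicin, and the last 3 groups overlapped with one another.

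ABCG1 (Entrez ID 9619, chr21:43619799-43717354, plus strand, 15 exons) followed the same split at lower counts. It was at 2.66, 3.69 and 4.08 CPM in untreated MDA-MB-231 libraries and at 0.304, 0.186 and 0.303 CPM, or 4 to 6 counts, with CKI. In A431 it was at 1.49, 1.59 and 2.10 CPM without treatment and at 11.01, 10.1 and 11.2 CPM with CKI. CKI in A431 was therefore the group with the most ABCG1 and CKI in MDA-MB-231 the group with the least, and the latter overlapped with CKI with 5-FU (6 to 12 counts). In MDA-MB-231, ABCG1 passed the filter on low counts through its 3 untreated and 3 5-FU libraries and 1 library with both agents, so the filter favoured a gene that is lower with CKI.

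**Figure D1:**
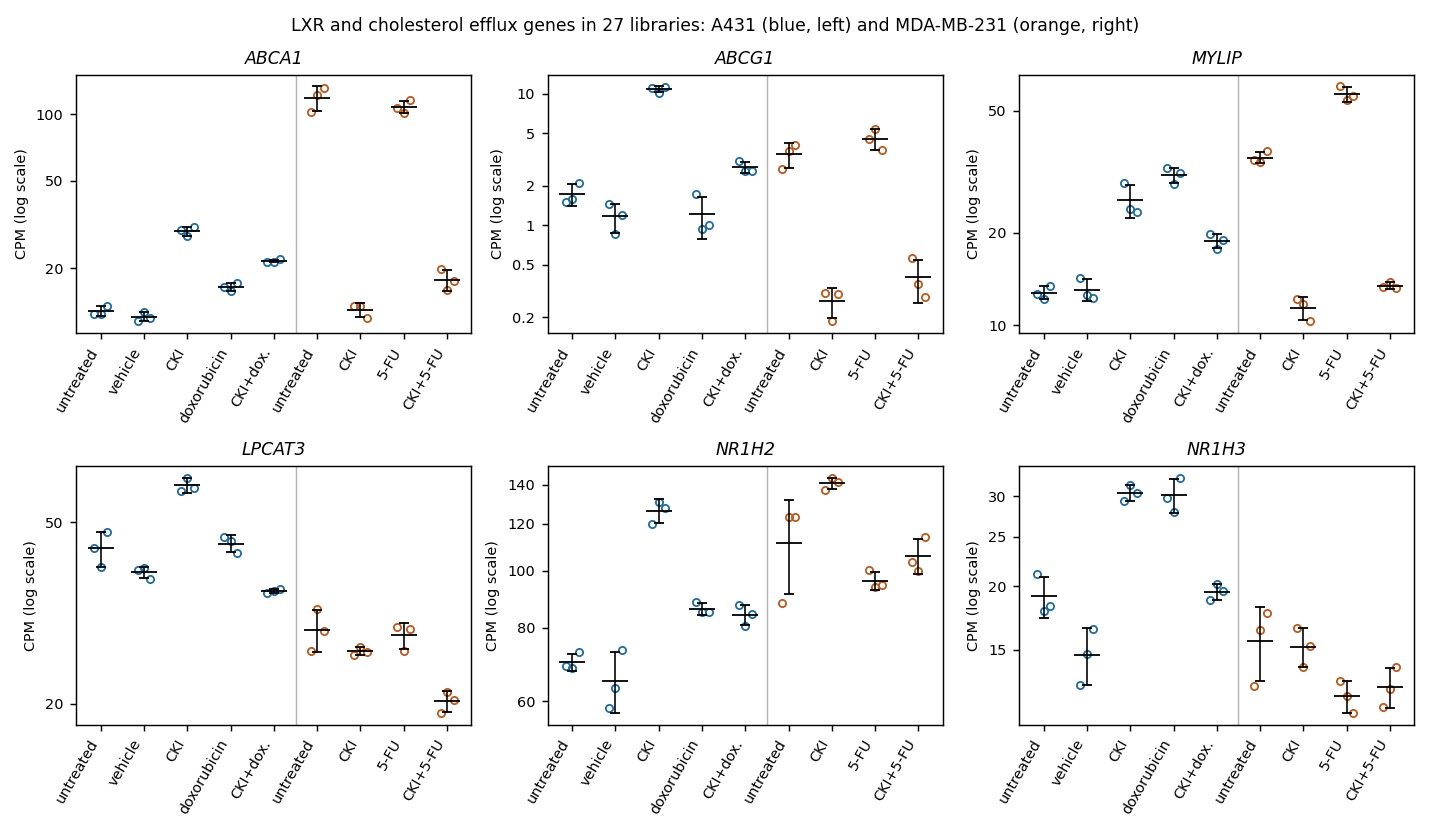
Level of each of the 6 genes in CPM (log scale) in the 27 libraries. Open circles are libraries, horizontal lines are group means and bars are SD (n = 3), with A431 groups in blue and MDA-MB-231 groups in orange. ABCA1, ABCG1 and MYLIP lay below the untreated level in MDA-MB-231 and above it in A431 after CKI.

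MYLIP (Entrez ID 29116, chr6:16129317-16148479, plus strand, 7 exons) was at 34.6, 34.05 and 36.8 CPM in untreated MDA-MB-231 cells and at 12.2, 11.7 and 10.3 CPM with CKI. In A431 it was at 12.7, 12.2 and 13.4 CPM without treatment and at 29.0, 23.9 and 23.45 CPM with CKI. The highest mean of MYLIP in each line was that of the drug alone, with 56.6 ± 3.07 CPM under 5-FU and 30.8 ± 1.76 CPM under doxorubicin (SD, n = 3). The doxorubicin group overlapped with CKI in A431, and the 5-FU group overlapped with no other group.

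LPCAT3 (Entrez ID 10162, chr12:7085347-7125781, minus strand, 13 exons) varied less. Its group means spanned 20.2 to 29.0 CPM in MDA-MB-231 and 35.3 to 60.2 CPM in A431. It was highest with CKI in A431 (58.55, 62.6 and 59.3 CPM) and lowest with CKI and 5-FU in MDA-MB-231 (19.1, 21.2 and 20.4 CPM), and neither of these groups overlapped with its neighbour. In its annotation 65.98% of the exonic bases of LPCAT3 are shared with EMG1, a ribosome biogenesis gene on the opposite strand. The libraries did not keep strand, so reads of both genes cannot be told apart there and the values of LPCAT3 are uncertain. EMG1 was at 94.8 ± 3.60 CPM in untreated A431 cells and 36.1 ± 2.31 CPM with CKI (SD, n = 3), the opposite order to LPCAT3.

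The receptors differed in level and in pattern. Per kilobase of transcript, NR1H2 exceeded NR1H3 in every group, with a mean ratio of 2.20 to 3.40 in the A431 groups and 5.47 to 7.13 in the MDA-MB-231 groups. NR1H2 (Entrez ID 7376, chr19:50832910-50886645, plus strand, 10 exons) was at 68.9, 68.35 and 72.65 CPM in untreated A431 libraries and at 119.8, 131 and 128 CPM with CKI, without overlap. In MDA-MB-231 it was at 88.1, 123 and 123 CPM without treatment and at 137, 143.5 and 141 CPM with CKI. The first of these values belongs to the untreated library that stood apart, and the CKI libraries also lay above the other 2.

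NR1H3 (Entrez ID 10062, chr11:47269851-47290584, plus strand, 10 exons) was at 21.15, 17.9 and 18.3 CPM in untreated A431 libraries and at 29.35, 31.5 and 30.5 CPM with CKI. Its level under doxorubicin (29.85, 28.0 and 32.7 CPM) overlapped with that under CKI. In MDA-MB-231 the means ran from 12.2 to 15.6 CPM, and neighbours in that order overlapped. NR1H2 shares 22.13% of its exonic bases with NAPSA and NR1H3 shares 4.17% with ACP2, both on the opposite strand. NAPSA stayed at 0.524 to 6.33 CPM, and ACP2 was at 31.9 to 46.0 CPM over all libraries.

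The fitted differences between CKI alone and untreated cells are given without a test, because the genes were chosen for the response of ABCA1 to CKI. In A431 cells the log2 fold change was 1.11 (SE 0.0764) for ABCA1, 2.55 (SE 0.179) for ABCG1 and 0.91 (SE 0.0956) for MYLIP. In MDA-MB-231 cells it was -3.20 (SE 0.115) for ABCA1, -3.71 (SE 0.310) for ABCG1 and -1.63 (SE 0.0783) for MYLIP. The remaining members were between 0.37 and 0.76 in A431 and between -0.17 and 0.32 in MDA-MB-231. Over all genes, 22.4% of 15881 tested in A431 and 5.96% of 13999 tested in MDA-MB-231 passed an adjusted p of 0.05 with an absolute log2 fold change over 1, the thresholds used for every call. In A431 12% were higher and 10.4% lower, and in MDA-MB-231 3.76% were higher and 2.21% lower. Against the vehicle control, where 19.5% of genes passed (11.3% higher, 8.22% lower), the A431 values were 1.18 for ABCA1, 3.11 for ABCG1 and 0.87 for MYLIP.

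The genes were chosen for a response of ABCA1 to CKI that differed between the lines, with earlier results of these data known. Whether the libraries with a drug entered that choice is not stated. The tests on them are therefore no independent support for ABCA1, or for counts that include it. When CKI was added to 5-FU in MDA-MB-231 cells, ABCA1, MYLIP and ABCG1 fell, and no member rose. Since the filter favoured a lower ABCG1, the count is given without it, as 2 of the other 5 members. The background was 9.77% of 13999 genes called, with 5.26% higher and 4.51% lower. ABCA1 was at 107, 101.5 and 116 CPM with 5-FU and at 19.85, 16.0 and 17.5 CPM with both agents, a 6.07-fold lower level (log2 fold change -2.60, SE 0.111, edgeR adjusted p = 1.38e-08). ABCG1 went from 78 to 113 counts per library to 6 to 12 counts (log2 fold change -3.48, SE 0.272, edgeR adjusted p = 1.19e-06). It would have passed the filter without the 5-FU libraries, and it had no value with at least 10 counts required in every library. MYLIP was 4.19-fold lower, with 59.98, 54.1 and 55.6 CPM under 5-FU and 13.4, 13.9 and 13.2 CPM under both agents (edgeR adjusted p = 6.21e-09). For each of these genes the groups were far apart. LPCAT3 was lower by a log2 fold change of -0.48 (edgeR adjusted p = 0.000598), short of the fold threshold. NR1H2 and NR1H3 had log2 fold changes of 0.14 and 0.06 with edgeR adjusted p of 0.311 and 0.707. The median over the 5 members without ABCG1 was -0.48, against 0.006 over all genes tested.

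When CKI was added to doxorubicin in A431 cells, ABCG1 rose, and it was the 1 member of 6 that passed. The background was 14.9% of 15881 genes called, with 6.89% higher and 8.03% lower. ABCG1 was at 1.71, 0.943 and 1.01 CPM with doxorubicin and at 3.06, 2.58 and 2.60 CPM with both agents, which is 2.27-fold higher and without overlap (log2 fold change 1.18, SE 0.221, edgeR adjusted p = 6.77e-05). ABCA1 was at 16.5, 15.7 and 17.1 CPM with doxorubicin and at 21.38, 21.42 and 21.95 CPM with both agents. This difference (log2 fold change 0.41, SE 0.0738, edgeR adjusted p = 4.01e-05) was larger than the spread between replicates and short of the fold threshold. MYLIP and NR1H3 were lower, by log2 fold changes of -0.69 (edgeR adjusted p = 3.88e-07) and -0.61 (edgeR adjusted p = 1.63e-06), and also short of it. LPCAT3 had -0.33 (edgeR adjusted p = 0.000221) and NR1H2 -0.01 (edgeR adjusted p = 0.875). The median over the members was -0.17, against 0.03 over all genes.

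**Figure D2:**
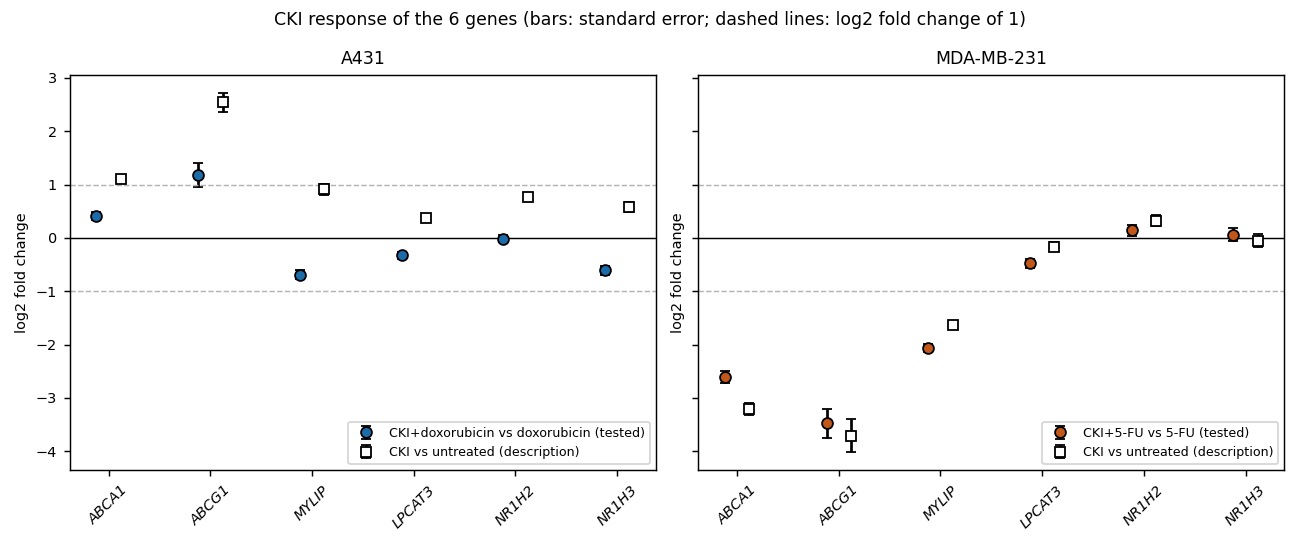
Log2 fold change of the 6 genes after CKI in A431 (left) and MDA-MB-231 (right). Filled circles are CKI with a drug against that drug (tested), open squares are CKI against untreated cells (description only), bars are standard errors and dashed lines mark the fold threshold. In MDA-MB-231, ABCA1, ABCG1 and MYLIP lie below -1 on the log2 scale in both, and in A431 only ABCG1 lies above 1 in both.

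The difference between the lines in the effect of CKI added to a drug was tested over the 12 libraries with a drug. A line difference in the response of ABCA1 to CKI is also why the genes were chosen. ABCA1, ABCG1 and MYLIP passed, which is 2 of 5 members without ABCG1, against a background of 15.8% of 16339 genes called with 7.66% higher and 8.17% lower in A431. The effect on ABCA1 was higher in A431 by 3.01 on the log2 scale (SE 0.101, edgeR adjusted p = 4.85e-25). For ABCG1 the difference was 4.65 (SE 0.358, edgeR adjusted p = 3.88e-14), resting on the same low counts in MDA-MB-231, and for MYLIP it was 1.37 (SE 0.0975, edgeR adjusted p = 4.64e-15). In the case of MYLIP both lines had a lower level with CKI, and the drop was larger in MDA-MB-231. LPCAT3 (0.14, edgeR adjusted p = 0.183), NR1H2 (-0.16, edgeR adjusted p = 0.0491) and NR1H3 (-0.68, edgeR adjusted p = 5.3e-06) were not called. The line and the partner drug cannot be told apart in this comparison.

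The drugs alone changed few members. Doxorubicin raised MYLIP in A431 cells, by a log2 fold change of 1.25 (SE 0.0938, edgeR adjusted p = 3.35e-11) against untreated cells and of 1.21 (SE 0.0925, edgeR adjusted p = 4.48e-11) against vehicle. MYLIP was the only member called in either, while 37.3% (23% higher, 14.3% lower) and 38.5% (23.7% higher, 14.8% lower) of all genes were called. NR1H3 was higher by 0.63 against untreated cells (edgeR adjusted p = 6.94e-07). Against vehicle it was higher by 0.9993 (edgeR adjusted p = 5.78e-10), at the edge of the fold threshold, and it passed in 8 of 15 other settings. ABCA1 was higher by 0.33 and 0.41 with edgeR adjusted p of 0.000702 and 7.4e-05, and not called. With library size alone as scaling, the split of all calls against untreated cells moved from 3650 higher and 2275 lower to 4725 and 1313, and against vehicle from 3771 and 2346 to 4752 and 1241.

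With 5-FU alone, 0 of the 6 members passed in edgeR, and 0 in DESeq2, against a background of 13.3% called, 6.01% higher and 7.31% lower. By unadjusted p under 0.05, 2 members of the 6 differed, where 61.7% of all genes did. The largest difference was that of MYLIP, 0.69 higher (SE 0.0723, edgeR adjusted p = 7.28e-06), and ABCA1 had -0.14 (SE 0.102, edgeR adjusted p = 0.272), or -0.23 without the untreated replicate that stood apart. The split of all calls was 842 higher and 1024 lower, and 1142 and 768 with library size alone. With vehicle against untreated A431 cells, 0 of 6 members passed in edgeR and in DESeq2, 2.54% of all genes were called (1.05% higher and 1.5% lower), and 3 members had an unadjusted p under 0.05, as had 49.3% of all genes. ABCA1 had -0.08 (SE 0.0837, edgeR adjusted p = 0.498) and NR1H3 had -0.37 (edgeR adjusted p = 0.00322). Fold changes in that comparison ran with the GC content of the transcripts (Spearman's rho of -0.58 across genes). NR1H2 and NR1H3 have GC contents of 61.4% and 58.4%, and the other members have 45.4% to 54.9%. Whether this bears on the values of the members was not tested. The comparisons with untreated cells share the untreated libraries with the comparisons of CKI alone, which bear on the choice of the genes.

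Among 10 partners and coregulators of the receptors, RXRA, the most common partner of LXRs, changed most. It was at 324 ± 21.1 CPM in untreated A431 cells and 2.27 ± 0.528 CPM with doxorubicin (SD, n = 3), a log2 fold change of -7.18 (edgeR adjusted p = 5.61e-21). With CKI added to doxorubicin it was at 17.8 ± 0.485 CPM, a rise of 2.99 on the log2 scale over doxorubicin alone (edgeR adjusted p = 8.42e-13), still far below untreated cells. These comparisons share the doxorubicin libraries. RXRB, another partner, named here after its values were seen, was at 46.8 to 65.9 CPM in all A431 libraries. RXRG, at 0 to 18 counts in A431, rose with doxorubicin and fell when CKI was added (log2 fold change -1.56, edgeR adjusted p = 0.0042). It passed the filter only through the 3 libraries with doxorubicin alone, so it had to be high there, and it had no value with at least 10 counts in every library. Of the 8 that passed the filter without those libraries, 1 rose and none fell when CKI was added to doxorubicin. Over all genes, 6.89% were called higher and 8.03% lower in that comparison. When CKI was added to 5-FU, 0 of 8 were called in edgeR or DESeq2, with 4 at an unadjusted p under 0.05 against 56.6% of all genes, and RXRA was at 57.4 ± 2.27 and 52.5 ± 3.95 CPM.

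Of 15 other known LXR targets with a row, 2 of 12 tested rose and 1 fell when CKI was added to doxorubicin. Over all genes, 6.89% were called higher and 8.03% lower there. When CKI was added to 5-FU, 1 of 11 rose and 2 fell, against 5.26% and 4.51% of all genes. FASN, the fatty acid synthase, and SCD, which desaturates fatty acids, rose in A431 by 3.20 (edgeR adjusted p = 1.84e-15) and 2.33 (edgeR adjusted p = 2.54e-19) on the log2 scale. FASN was at 106 ± 1.51 CPM with doxorubicin, 959 ± 79.3 CPM with both agents and 1977 ± 127 CPM without treatment. Doxorubicin alone lowered FASN by 4.25 on the log2 scale against untreated cells, and both comparisons share the doxorubicin libraries. APOC1, an apolipoprotein gene, fell in both lines, with log2 fold changes of -1.13 in A431 (edgeR adjusted p = 1.04e-07) and -1.82 in MDA-MB-231 (edgeR adjusted p = 1.16e-05). With offsets for GC content and transcript length the value in A431 was -0.83, below the fold threshold. In MDA-MB-231, SREBF1, the lipogenic transcription factor, fell as well (log2 fold change -1.49, edgeR adjusted p = 0.00273), from 188 ± 14.5 to 66.8 ± 11.2 CPM, and MLXIPL, which encodes the carbohydrate response factor, rose (1.32, edgeR adjusted p = 0.00621). The median log2 fold change of the list was -0.07 in A431 and 0.03 in MDA-MB-231, against 0.03 and 0.006 over all genes. The effect of CKI differed between lines for 5 of 13, with FASN (2.96), SCD (2.03) and APOE (1.39) among the 4 that were higher in A431. Over all genes this difference was called for 15.8%, with 7.66% higher and 8.17% lower in A431. With doxorubicin alone, 5 of 12 rose and 5 fell against untreated cells, where 23% of all genes were called higher and 14.3% lower. ABCG8 had no count in untreated A431 libraries and 24 to 31 counts with doxorubicin, and CETP, a lipid transfer protein, had 0 to 4 and 30 to 35 counts. Both are among the 5 that rose, and both reached the filter only in libraries with doxorubicin, alone or with CKI. The filter thus favoured their rise, and neither had a value with at least 10 counts in every library. With 5-FU alone 1 of 11 rose and 4 fell, where 6.01% of all genes were called higher and 7.31% lower. SCD fell most (log2 fold change -1.83, edgeR adjusted p = 5.98e-08), followed by MLXIPL (-1.68) and FASN (-1.61). This comparison shares the 5-FU libraries with that of CKI added to 5-FU.

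Of 16 other genes of cholesterol efflux and intracellular transport, 2 of 15 rose when CKI was added to doxorubicin. Over all genes, 6.89% were called higher there. STARD4, a sterol carrier, was at 31.45 ± 1.48 CPM with doxorubicin and 121 ± 3.12 CPM with both agents (log2 fold change 1.96, edgeR adjusted p = 1.85e-15), and NPC1, which exports cholesterol from late endosomes, was at 98.8 ± 1.29 and 236.5 ± 6.28 CPM (1.28, edgeR adjusted p = 2.38e-14). SCARB1, the receptor for high-density lipoprotein, named after its values were seen, lay at the edge of the fold threshold (log2 fold change -0.9991, edgeR adjusted p = 4.04e-10) with 129.6 ± 6.61 and 63.9 ± 1.87 CPM. It passed as lower with RLE factors, library size alone, DESeq2, at least 10 counts, only the compared groups, and without either of 2 libraries. When CKI was added to 5-FU, 1 of 16 fell, where 4.51% of all genes were called lower. This was APOA1, the main apolipoprotein of high-density lipoprotein, with 9 to 15 counts under 5-FU and 3 to 5 with both agents (edgeR adjusted p = 0.0109). APOA1 reached the filter in only 5 libraries, none of them with both agents, so the filter favoured a fall. It had no value with only the compared groups or with at least 10 counts in every library. NPC1, SOAT1, which esterifies cholesterol, and STARD4 differed between the lines in the effect of CKI, by 1.43, 1.39 and 1.38 on the log2 scale. The list medians were 0.12 in A431 and -0.07 in MDA-MB-231. With doxorubicin alone, 2 of the 14 genes that passed the filter without the libraries in which they were higher rose and 1 fell, where 23% of all genes were called higher and 14.3% lower. ABCG4, a transporter related to ABCG1, had 2 counts in each untreated library and 11 to 17 with doxorubicin. It is among the 2 that rose, but it reached the filter only in libraries with doxorubicin, alone or with CKI. The filter thus favoured its rise, and it had no value with at least 10 counts in every library. CAV1, which encodes caveolin, fell by 2.07 on the log2 scale (edgeR adjusted p = 7.57e-18), and with 5-FU alone it fell by 1.19 in MDA-MB-231 (edgeR adjusted p = 3.33e-06).

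Of the enzymes that make or remove sterol ligands of LXRs, 5 passed the filter in MDA-MB-231 without the 5-FU libraries. When CKI was added to 5-FU, 2 of these 5 fell and none rose (median -0.96), where 4.51% of all genes were called lower. CH25H, which makes an oxysterol, had 58 to 81 counts with 5-FU and 8 to 17 with both agents (log2 fold change -2.44, edgeR adjusted p = 1.05e-05). CYP11A1, which cleaves the cholesterol side chain, was at 59 to 83 and 15 to 23 counts (-1.90, edgeR adjusted p = 4.64e-05), and SULT2B1, which sulfates cholesterol and oxysterols, was at 8 to 15 and 1 to 3 counts (-2.45, edgeR adjusted p = 0.00227). SULT2B1 reached the filter in only 3 libraries, none of them with both agents, and had no value with only the compared groups. With at least 10 counts required in every library, 1 of 4 was called. CH25H and CYP11A1 had risen with 5-FU alone, by 2.89 and 1.60 on the log2 scale against untreated cells, and these comparisons share the 5-FU libraries. In A431 cells, 5 of the enzymes passed the filter without the libraries in which they were higher. Of these 5, 2 rose and none fell when CKI was added to doxorubicin, where 6.89% of all genes were called higher. SULT2B1 rose, from 57 to 72 counts to 150 to 166 counts (1.31, edgeR adjusted p = 1.74e-08). CH25H fell from 11 to 14 counts to 3 to 7 counts (-1.22, edgeR adjusted p = 0.0279). It passed the filter only through the 3 libraries with doxorubicin alone, so the filter favoured this fall. The call was lost in DESeq2 (adjusted p = 0.0942) and without 4 of the 6 compared libraries in turn (edgeR adjusted p of 0.0528 to 0.137). The effect of CKI on SULT2B1 and CYP11A1 differed between the lines by 3.75 and 2.02 on the log2 scale. With doxorubicin alone CYP46A1, CYP27A1 and CH25H rose, and each of these had at most 21 counts in any A431 library. CYP46A1 and CH25H passed the filter only through the 3 libraries with doxorubicin alone, and CYP27A1 reached it in no untreated library, so a rise was what the filter favoured. Of the 5 genes that passed without the libraries with doxorubicin alone, 2 rose, CYP27A1 and CYP11A1, where 23% of all genes did. CYP27A1 then passed mostly through libraries with both agents, and neither gene reached the filter in an untreated library. The filter thus favoured these 2 rises as well. With at least 10 counts required in every library, CYP46A1, CYP27A1, CH25H and CYP11A1 had no value.

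Genes of sterol synthesis and uptake mostly rose in A431 cells when CKI was present with doxorubicin. When CKI was added to doxorubicin, 7 of 8 rose and none fell (list median 1.93), where 6.89% of all genes were called higher. The count was 7 in each of the alternative settings that kept the fold threshold. INSIG1, which retains the sterol sensor in the endoplasmic reticulum, went from 65.3 ± 0.891 to 537 ± 5.34 CPM (log2 fold change 3.06, edgeR adjusted p = 1.35e-20). SQLE, the squalene epoxidase, rose 5.64-fold (edgeR adjusted p = 4.97e-19). When CKI was added to 5-FU in MDA-MB-231 cells, 3 of 8 rose, where 5.26% of all genes were called higher. These were SQLE (1.41, edgeR adjusted p = 4.74e-08), INSIG1 (1.10, edgeR adjusted p = 1.22e-07) and HMGCS1 (1.02, edgeR adjusted p = 3.29e-05), and the list median was 0.80. HMGCS1 lay below the fold threshold without either of 2 libraries and with offsets for GC content and transcript length (0.935). The effect of CKI differed between the lines for 4 of 8, all higher in A431, INSIG1 (1.96) among them. Of all genes, 7.66% were called higher in A431 by that difference. Both drugs alone lowered 3 of 8 against untreated cells. Over the settings that kept the fold threshold this was 2 to 4 of 8 for doxorubicin and 2 to 3 of 8 for 5-FU. Against vehicle, doxorubicin lowered 7 of 8, or 4 of 8 with library size alone as scaling. Of all genes, 14.3% were called lower with doxorubicin and 7.31% with 5-FU against untreated cells, and 14.8% with doxorubicin against vehicle. The comparisons of a drug alone share the libraries of that drug with those of CKI added to it. HMGCS1, which makes the precursor of mevalonate, was the 1 gene of these lists that was called between vehicle and untreated cells (1.46, edgeR adjusted p = 2.9e-14).

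**Figure D3:**
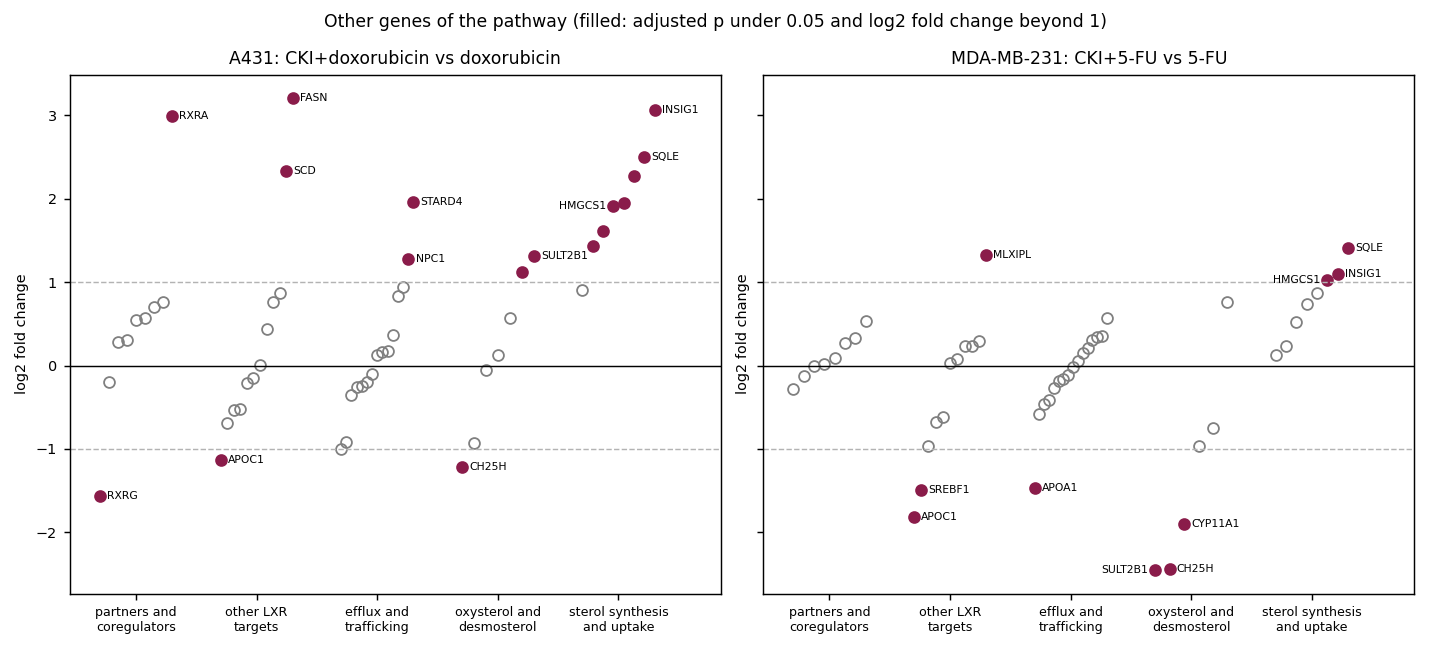
Log2 fold change of every tested gene of the other pathway lists when CKI was added to doxorubicin in A431 (left) and to 5-FU in MDA-MB-231 (right). Each point is a gene, ordered by value within its list, and filled points passed both thresholds, with the genes described in the text named. The sterol synthesis and uptake list has 7 of 8 filled points in A431 and 3 of 8 in MDA-MB-231.

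The genes with a pattern most like that of ABCA1 were sought among 16668 genes, by Pearson's r over the 9 group means of log2 CPM after centring each line on its own mean. They were PLPP3 (r = 0.957), a lipid phosphate phosphatase, RHOV (0.952), a small GTPase, ZXDA (0.932), a zinc finger protein, ABCG1 (0.922) and TTC39A (0.909). MYLIP came at rank 10 (0.889). The group means of PLPP3 spanned 0.798 on the log2 scale in A431 and 1.66 in MDA-MB-231, those of RHOV 1.18 and 2.65, and those of ABCG1 3.12 and 3.67. The points are 9 group means that share their scaling, so r is a description. Without centring, PLPP3 was still the most alike (0.962), while r was -0.1141 for RHOV, -0.3789 for TTC39A and 0.03 for ZXDA.

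**Figure D4:**
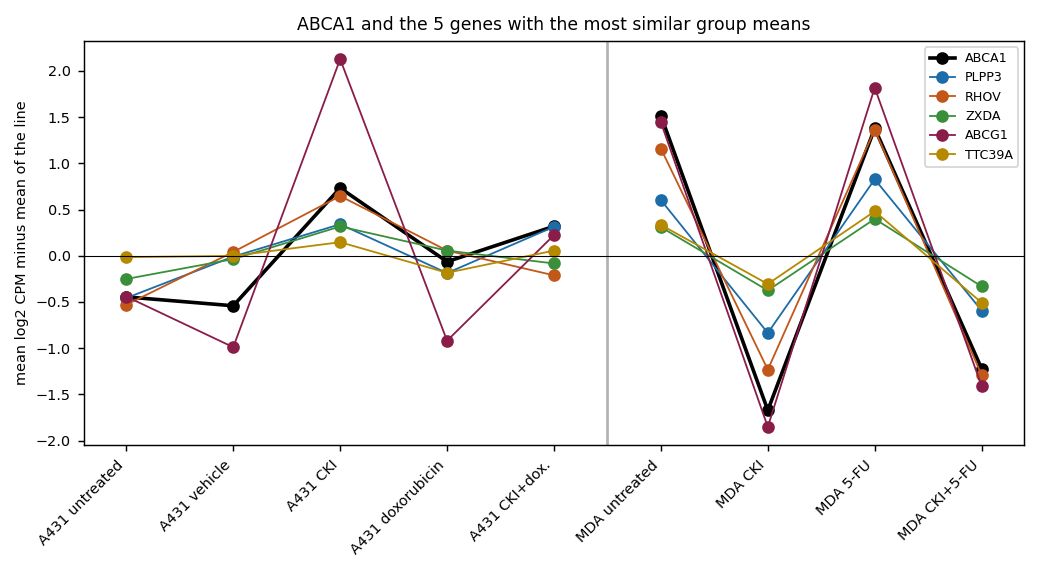
Group means of log2 CPM of ABCA1 and the 5 genes most like it, each minus the mean of its line, over the 5 A431 groups (left) and the 4 MDA-MB-231 groups (right). Lines only connect the points of a gene. All 6 genes are lowest with CKI, alone or with 5-FU, in MDA-MB-231, and ABCG1 has the widest range.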

How the data were processed

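Raw read counts of each gene in the 27 libraries were deposited by the authors as 1 table. The submitters' processing notes name Trim Galore 0.3.7, STAR 2.5.3a and hg19, while the counting tool and its annotation are not given in the sources used here, and the libraries did not keep strand. Totals of 17757206 to 22809339 counts set the precision, and intervals and floors cover counting error only. Groups were taken from the sample labels, and all replicate pairs differed by more than sampling noise.

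Each line was fitted on its own with edgeR 4.0.16 (R 4.3.3, limma 3.58.1), using its default expression filter, TMM factors and the quasi-likelihood F-test over all groups of the line. The line difference was fitted over the 12 libraries with a drug. P-values were adjusted over all genes tested by Benjamini-Hochberg, and a gene was called at an adjusted p under 0.05 with an absolute log2 fold change over 1. Levels are CPM with TMM factors over all 27 libraries, so they can differ slightly from the fits. The code was tested on simulated data. The members and gene lists were chosen with earlier results of these data known. All members are named, together with at most 3 called genes of largest fold change per list and comparison and the 5 genes most like ABCA1. Alternatives were other scaling (RLE, library size only), DESeq2 1.42.0, no filter or at least 10 counts in every library, only the compared groups, adjusted p alone, the replicate number as a block, 1 row per Ensembl ID, GC content and length offsets, and each library left out in turn. Counts over the lists under these settings, and counts without genes that passed the filter only through the groups in which they were higher, were added after seeing the data. Gene positions are from the GRCh37 annotation. ACACA and PECAM1 were not analysed here, and some other genes that the naming rule selects are not reported here, though they count in the list totals.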

Additional observations from a re-analysis of the deposited data

Results flagged for a closer look

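The effect of CKI added to a drug differed between the lines for 3 of the 6 genes. This was a test of the difference itself over the 12 libraries with a drug. The genes were chosen because ABCA1 responded to CKI differently in the lines, so its value is no independent support. The effect in A431 minus that in MDA-MB-231 was 3.01 on the log2 scale for ABCA1, 4.65 for ABCG1, which had 6 to 12 counts with both agents in MDA-MB-231, and 1.37 for MYLIP. For ABCA1 and ABCG1 the fitted effects had opposite signs in the lines, and for MYLIP both were negative. The line and the partner drug cannot be told apart.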

How the results depend on the processing

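Of 705 alternative values for the fold changes of the 6 genes, 680 kept their direction where called and their side of the thresholds, 25 newly passed and none was lost or reversed. Of the 25, 17 came from adjusted p alone and 8 were NR1H3 between doxorubicin and vehicle. With adjusted p alone, ABCA1 passed for CKI added to doxorubicin (0.41) and for doxorubicin against untreated cells (0.33) and vehicle (0.41). That rule called 5 members for CKI added to doxorubicin, 5 for the line difference, 4 and 5 for doxorubicin against untreated cells and vehicle, 2 for 5-FU and 1 for vehicle. It called 10102, 7059, 9087, 12802, 12934, 7992 and 6748 genes for CKI added to doxorubicin, CKI added to 5-FU, the line difference, doxorubicin against untreated cells, doxorubicin against vehicle, 5-FU and vehicle. With at least 10 counts in every library the counts were 1431, 903, 1611, 3197 and 3225 for the first 5 of these and 174 for vehicle, since fewer genes were tested, and ABCG1 had no value in the fits with MDA-MB-231. Vehicle against untreated cells gave 404 genes, 263 with only the compared groups and 243 with GC content and length offsets, and the cause was not tested. Doxorubicin against vehicle called 2 members with RLE factors, library size only, DESeq2, at least 10 counts, only the compared groups and 1 row per Ensembl ID. It also called 2 without doxorubicin replicate 2 or without vehicle replicate 3. Leaving out each library gave 324 to 561 genes for vehicle, and ABCG1 stayed between 1.03 and 1.51 for CKI added to doxorubicin. The likeness of RHOV and TTC39A to ABCA1 reversed without centring (-0.1141 and -0.3789) and over the 27 libraries (-0.1126 and -0.3779). Library size only moved the median of all genes by 0.344 for doxorubicin against untreated cells, 0.347 against vehicle and 0.131 for 5-FU, and RLE factors moved it by 0.111 against vehicle. Of 270 alternative levels, 36 moved by over 1 SD, 28 of them with library size only and 8 with RLE factors.

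Samples with the same replicate number did not deviate together (r of -0.137 to 0.049). No sign of pairing by number was seen, though these values cannot exclude it. With the replicate block, 2362, 1358, 2551, 5919, 6103, 1841 and 386 genes were called in the 7 comparisons, in the order above, and ABCA1 was at 0.41, -2.60, 3.01, 0.33, 0.40, -0.14 and -0.08. The block changed no call of a member.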
